A study of Mus musculus with 2 samples.

Results

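The cells described here are 130 cells of the osteoblast lineage among the 7559 cells retained from the mouse dura mater. The study compared 2 groups of female mice, one operated as sham (sham) and one whose jugular veins had been tied 14 days earlier (JVL-14). After perfusion of the mice, the membrane was stripped off the skullcaps and digested, cells of 2 meninges were pooled per well, and live singlets were sorted. Each group gave 1 droplet library that counts the 3' ends of transcripts. The sources used here do not state the number of mice per library, the interval after sham surgery, the age or the strain. A cell was a member if it held at least 5 unique molecular identifiers (UMIs, single counted transcript molecules) of Ibsp, Bglap, Bglap2 and Sp7 together and at least 10 of Col1a1, with fewer than 5 of the 3 C1q genes and fewer than 2 of Cd79a and Cd79b. Members were thus selected on measured values of these genes, and what follows from that choice is given as a description only.

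Osteoblasts are the cells that lay down bone. They arise from mesenchymal progenitors under the transcription factors RUNX2 and osterix (Sp7), secrete type I collagen, and then add the proteins that accompany mineral, among them bone sialoprotein (Ibsp), osteopontin (Spp1) and osteocalcin (Bglap, Bglap2). The outer layer of the dura is the inner periosteum of the skull bones, and some osteoblasts end as osteocytes buried in the matrix, which switch on Dmp1, Phex, Mepe and Sost.

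Of the members, 79 came from sham and 51 from JVL-14. In sham the filter of at least 200 genes and at most 10% mitochondrial UMIs left 4951 of 5495 barcodes, of which 104 had 5 or more UMIs of the 4 osteoblast genes, 80 of those also had 10 or more of Col1a1, and 79 passed the C1q and Cd79 limits. In JVL-14 the same steps gave 2608 of 3004, then 57, 51 and 51. For the osteoblast gene limit, 7 sham and 2 JVL-14 members sat exactly at 5 UMIs, and 2 cells in each library that met the other limits sat at 4. Counting from 1 to 4 UMIs, 142 sham and 96 JVL-14 cells met the other limits, more than the members. For the Col1a1 limit, 21 sham and 6 JVL-14 cells met every other limit with fewer than 10 Col1a1 UMIs. Of these, 9 and 4 held 5 to 9, and 8 and 7 members held 10 to 14. Members held a median of 6998 UMIs per cell in sham (1485 to 32349) and 7593 in JVL-14 (2393 to 20313), and 628578 and 418942 UMIs in all. The 2 libraries shared 2 barcodes, and 0 of these were members. A sham member and a JVL-14 member carried 6157 and 6183 haemoglobin UMIs, and 1 sham member carried 2452 UMIs of neutrophil markers. With 1 library per group nothing here has a replicate, so no difference between the groups was tested, and every interval below is a 95% interval of counting error alone.

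**Figure D1:**
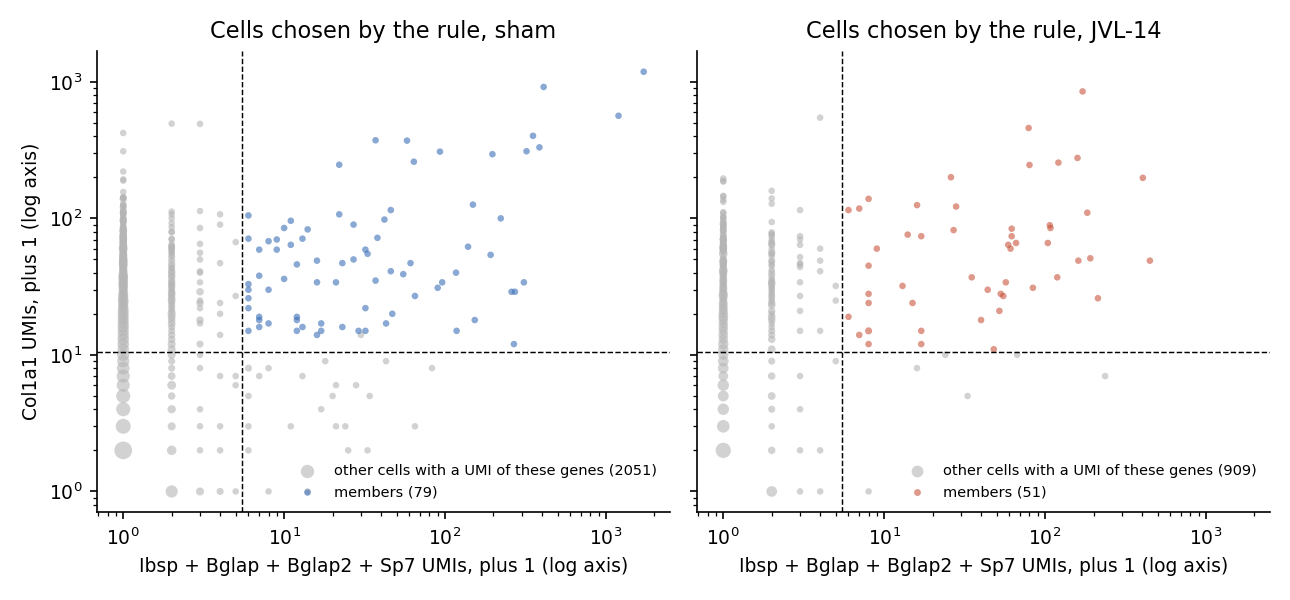
Each point is a combination of UMI counts, sized by the number of cells there, with the summed Ibsp, Bglap, Bglap2 and Sp7 UMIs on the horizontal log axis and Col1a1 UMIs on the vertical log axis, 1 added to each. Coloured points are the 79 sham and 51 JVL-14 members, grey points are other retained cells with a UMI of these genes, and the dashed lines mark the limits of 5 and 10 UMIs, with grey points below the horizontal line for the 21 sham and 6 JVL-14 cells that missed the Col1a1 limit alone.

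The 6 label genes were all present in both libraries, starting with the factors that commit cells to bone. Sp7, which encodes osterix, was found in 29 of 79 sham members and 33 of 51 JVL-14 members. Its level per cell ran from 0 through a median of 0 to 6.73 per 10000 UMIs in sham and from 0 through 1.05 to 4.94 in JVL-14. Summed over members, this was 57.3 per 1000000 UMIs (CPM) against 148. Runx2, the factor upstream of osterix, had medians of 1.89 and 3.06 per 10000 UMIs and was found in 61 and 44 members. Pth1r, the receptor for parathyroid hormone, had medians of 5.72 (0 to 22.6) and 8.51 (0 to 31.0) and was found in 75 and 49 members, that is 94.9% (87.5 to 98.6%) and 96.1% (86.5 to 99.5%). Macrophages of the same libraries, which should lack the receptor, showed a Pth1r UMI in 0.712% and 0.769%. Their median depth was 3110 and 3507.5 UMIs per cell. Other Col1a1-rich cells, which held none of the 4 osteoblast genes and are described further below, showed both genes more often. Of these cells, 34.3% in sham and 34.4% in JVL-14 held a Pth1r UMI, and 38.9% and 39.9% a Runx2 UMI.

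The 2 osteocalcin genes, which the rule used, were found in nearly all members and very unevenly. Bglap2 was found in 78 of 79 sham and in 51 of 51 JVL-14 members, with medians of 21.2 (0 to 855) and 24.0 (0.733 to 211) per 10000 UMIs. Bglap had medians of 9.38 (0 to 1744) and 10.9 (0 to 459) and was found in 68 and 49 members, while 3.68% and 0.513% of macrophages showed a Bglap UMI. A few sham cells carried most of it: 5 cells held 61.6% of all sham Bglap UMIs, and 5 cells held 49.6% of those of JVL-14. The summed level of Bglap was therefore 6540 CPM in sham and 3308 in JVL-14 although the medians were alike. Reads of the 3 osteocalcin genes are hard to tell apart. In the GENCODE vM21 transcripts the Bglap and Bglap2 messages are 98.6% identical over 440 aligned bases and 99.5% over their last 200, and Bglap3 is 97.0% and 97.5% identical to them over that stretch, so the division of counts among the 3 is uncertain.

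The products of mature osteoblasts split the members more sharply. Ibsp, an acidic protein that nucleates mineral, was found in 15 sham and 11 JVL-14 members only, with a median of 0 and a highest cell at 273 and 252 per 10000 UMIs, and in 0.712% and 0% of macrophages. Spp1, a secreted phosphoprotein of bone matrix, was found in 25 and 12 members, and its 5 highest cells held 88.9% and 98.3% of its UMIs. Mmp13, the collagenase of bone, was found in 42 and 29 members, with medians of 0.734 (0 to 92.5) and 1.66 (0 to 52.3). Alpl, the alkaline phosphatase that frees phosphate for mineral, was spread more evenly, with medians of 10.3 and 11.4 and a UMI in 67 and 50 members. Osteocalcin, which the rule used, and Alpl were thus found in most members, and Ibsp and Spp1 in a minority in each library. Alpl was not particular to members, since 71.3% and 69.7% of the other Col1a1-rich cells, described below, also showed a UMI.

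**Figure D2:**
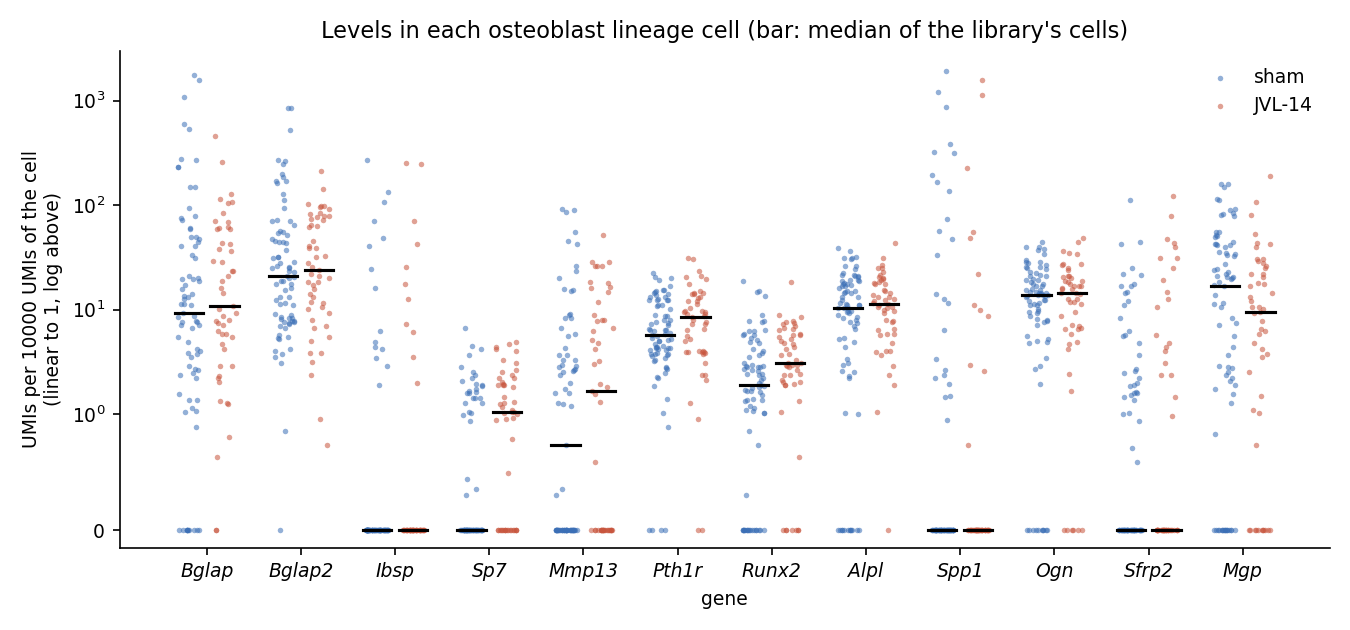
Each point is 1 member, blue for sham and red for JVL-14, with UMIs per 10000 UMIs of that cell on an axis that is linear to 1 and logarithmic above, and the black bar is the median of the library's members. Bglap2, Pth1r, Alpl and Ogn lie above 0 in most cells of both libraries, while the medians of Ibsp, Spp1 and Sfrp2 are 0 in both.

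The sequences before the start sites of 4 of these genes are shown because RUNX2, present in most members, binds the letters ACCACA, which read TGTGGT on the other strand. They are the 250 bases before the RefSeq start in the GRCm38.p6 table, written on the gene's strand, with ACCACA in capitals. They cover chr3:88384467-88384716 on the minus strand for Bglap and, on the plus strand, chr5:104299037-104299286 for Ibsp, chr9:7272264-7272513 for Mmp13 and chr5:104434861-104435110 for the first of 2 Spp1 starts.
Bglap: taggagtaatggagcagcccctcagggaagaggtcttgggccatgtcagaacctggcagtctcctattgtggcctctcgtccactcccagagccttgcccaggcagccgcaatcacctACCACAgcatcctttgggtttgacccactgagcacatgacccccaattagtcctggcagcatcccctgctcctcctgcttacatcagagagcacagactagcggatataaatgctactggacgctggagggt
Ibsp: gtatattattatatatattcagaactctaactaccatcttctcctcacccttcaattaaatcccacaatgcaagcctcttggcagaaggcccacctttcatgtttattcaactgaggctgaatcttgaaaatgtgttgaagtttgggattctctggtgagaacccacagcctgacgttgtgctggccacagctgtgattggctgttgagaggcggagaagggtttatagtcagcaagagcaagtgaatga
Mmp13: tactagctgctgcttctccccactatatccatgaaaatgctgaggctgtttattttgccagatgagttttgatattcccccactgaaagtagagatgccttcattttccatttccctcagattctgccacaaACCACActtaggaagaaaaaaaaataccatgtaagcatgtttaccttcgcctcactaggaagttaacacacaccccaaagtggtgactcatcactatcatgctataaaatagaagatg
Spp1: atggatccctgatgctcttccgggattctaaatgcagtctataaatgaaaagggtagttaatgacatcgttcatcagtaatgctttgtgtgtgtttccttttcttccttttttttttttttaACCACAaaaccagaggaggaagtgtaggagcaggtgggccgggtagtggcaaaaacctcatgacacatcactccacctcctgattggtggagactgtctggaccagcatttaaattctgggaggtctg
The letters begin at base -132 in Bglap, -118 in Mmp13 and -128 in Spp1, counted from -1 just before the start, and they are absent on both strands from the Ibsp window. Of the 13 genes found in the table among the label genes and the 15 named against other fibroblasts below, 3 had the letters on either strand, and 15.9% of all 27025 genes in the table did. A match in such a short window is a description of letters, not a binding site.

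Genes of the osteocyte end of the lineage were close to absent. Phex and Mepe had 0 UMIs in all members, which allows a share of cells with a UMI of up to 3.80% in sham and 5.88% in JVL-14. Of the other Col1a1-rich cells 3.05% and 4.68% held a Phex UMI and 0% a Mepe UMI. These shares lie below the limits for members, so the counts of 0 do not set the members apart. Sost, the Wnt antagonist of osteocytes, had 1 UMI in 1 sham member. Dmp1 was found in 2 sham members with 8 UMIs together and in 1 JVL-14 member with 53 UMIs, so its level was set by a single cell. Tnfsf11 (RANKL), the signal that drives osteoclast formation, was found in 14 sham and 5 JVL-14 members at 28.6 and 11.9 CPM. Genes of the early lineage took a median of 0.759% of a cell's UMIs in sham and 0.839% in JVL-14, bone matrix proteins 4.87% (1.58 to 66.2%) and 5.58% (2.10 to 22.8%), mineralisation genes 0.531% and 0.532%, and osteocyte transition genes 0.190% and 0.202%. After each cell was thinned to 2000 UMIs, which left out 1 sham member, the medians for these 4 lists were 0.75, 4.90, 0.5 and 0.2% in sham and 0.8, 4.70, 0.5 and 0.2% in JVL-14.

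Marker lists of other cell types ranged from absent to common in the members. All 9 T and natural killer cell markers were at 0 in both libraries. The endothelial list summed to 31.8 CPM in sham, where 6 of 10 markers had a UMI, and to 7.16 in JVL-14, where 3 did, with Pecam1, Kdr and Tek at 0 in both. The osteoclast list summed to 614 and 570 CPM, against 402 and 469 in the comparison fibroblasts described next, and 49 and 34 members held 3 or more of its UMIs. Ctsk (cathepsin K), a protease, made up 74.9% and 90.0% of that list and Mmp9 17.9% in sham, while Ocstamp, Dcstamp, Atp6v0d2, Calcr and Oscar were at 0 in both libraries. The tendon-like list summed to 3522 and 2650 CPM, against 1932 and 2146 in those fibroblasts, and 72 and 47 members held 3 or more of its UMIs, mostly Comp and Fmod. The Schwann and glia list summed to 948 and 1007 CPM, against 1756 and 1265, with 3 or more UMIs in 62 and 42 members, led by the adhesion gene Ncam1, while Sox10 and Gfap were at 0. The neutrophil list summed to 4015 CPM in sham and 57.3 in JVL-14, and the erythroid list to 10115 and 15148, and the 3 cells named above held most of the sham neutrophil counts and of both erythroid counts. The chondrocyte list reached 1788 and 1489 CPM, against 668 and 837 in the comparison fibroblasts. Comp, a matrix protein shared with tendon, made up 91.5% and 91.7% of it in members. Col2a1, Matn1, Matn3, Snorc and Cnmd were at 0 in members of both libraries. The mural list reached 1467 and 2000 CPM, against 429 and 654 in the comparison fibroblasts. Smooth muscle actin, Acta2, made up 60.1% and 65.0% of it in members. All 10 mural markers had a UMI in sham members, while Rgs5, Kcnj8, Myh11 and Des were at 0 in JVL-14. Dural fibroblast markers summed to 3231 and 1879 CPM in members, against 8973 and 9432 in the comparison fibroblasts, with 3 or more UMIs in 73 and 45 members, and ranged from 0 to 90.2 and 92.7 per 10000 UMIs between members. All 39 Hox genes in the files, the genes that set position along the trunk and are off in much of the skull, had 0 UMIs in all 130 members. That allows up to 4.77 CPM for any of them in sham and 7.16 in JVL-14. Among all retained cells 22 of these genes had a UMI in sham and 16 in JVL-14. Summed, the 39 genes were at only 5.11 and 6.71 CPM there, and at 0.768 and 0.320 in the comparison fibroblasts. These levels lie near or below the limits for members, so the count of 0 does not set the members apart.

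Beside the members stood 820 sham and 363 JVL-14 cells that had 10 or more Col1a1 UMIs and none of the 4 osteoblast genes. The 142 sham and 96 JVL-14 cells with 1 to 4 UMIs of the osteoblast genes were in neither class. The rule itself made this contrast, so it describes the members and tests nothing. Of the genes that reached 50 UMIs and 100 CPM in the higher class in both libraries, 57 of 1359 were past 4-fold higher in members in both libraries (4.19%), and 77 of 1579 were past 4-fold lower (4.88%). Bglap3, their near copy, followed the rule's own genes with 294 and 198 CPM against 0.128 and 0.320, and it shares sequence with them. Mmp13 was at 748 CPM in sham members against 4.09 in the other Col1a1-rich cells (183-fold) and at 802 against 3.84 in JVL-14 (209-fold). Fat3, a giant protocadherin, was 157-fold and 152-fold higher, Tnc (tenascin C) 121-fold and 124-fold, and Spp1 148-fold and 226-fold. The periosteal matrix genes Tnn (tenascin W) and Postn (periostin) were 36.2-fold and 75.1-fold, and 25.0-fold and 30.5-fold, higher. Lrrc15, a membrane protein of matrix-forming fibroblasts, was at 121 CPM against 2.05 in sham and at 160 against 0.320 in JVL-14. The receptor gene Tnfrsf19 was 32.0-fold and 28.0-fold higher, S1pr1, a receptor for sphingosine 1-phosphate, 18.2-fold and 25.0-fold, the homeobox gene Dlx6 17.0-fold and 20.0-fold, and the potassium channel gene Kcnk2 15.3-fold in both.

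In the other direction, 15 genes were named by the mirror image of that rule, after the data had been seen. Myoc (myocilin) was at 760 CPM in the other sham Col1a1-rich cells and 617 in those of JVL-14, and at 6.36 and 4.77 CPM, 4 and 2 UMIs, in members. Col14a1, a fibril-associated collagen, was at 456 and 449 CPM against 31.8 and 21.5. Mfap5, a microfibril protein, was at 595 and 730 CPM against 50.9 and 0. The alarmin gene Il33 was at 262 and 279 CPM against 20.7 and 19.1, and Tnmd (tenomodulin), a tendon gene, at 114 and 158 against 9.55 in both. The others named by the same rule were Atp1b1, Palmd, Meg3, Ntrk2, Ccn3, Igfbp2, Ly6a, Itih5, Bace2 and Tmeff2, each at least 10.9-fold lower in sham members.

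The members were not uniform, and Ibsp was found in a minority of them. This division was chosen after the data had been seen: 10 cells in each library held 3 or more Ibsp UMIs, against 63 sham and 39 JVL-14 members with 0, once the 3 members rich in haemoglobin or neutrophil transcripts were set aside. The Ibsp cells were deeper in JVL-14, with a median of 11025.5 UMIs against 7550, and similar in sham, 7630 against 6978. Of the Ibsp cells 3 of 10 in sham and 2 of 10 in JVL-14 were among the top 5% of doublet scores, against 3 of 63 and 0 of 39 members without Ibsp. The limits for transcripts of blood, muscle or olfactory cells, given further below, were met by 8 of 10 Ibsp cells in each library, against 45 of 63 and 24 of 39. The part of these in the division was not tested. Of 2235 genes measured, 30 were past 2-fold higher in the Ibsp cells in both libraries (1.34%) and 143 past 2-fold lower (6.40%). All members together gave 11 of the 79 in sham and 10 of the 51 in JVL-14 with 3 or more Ibsp UMIs, 13.9% (7.16 to 23.5%) and 19.6% (9.82 to 33.1%).

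Among 11 measured mineralisation genes, 4 were higher in the Ibsp cells of both libraries and 5 lower in both, with medians of -0.57 in sham and 0.11 in JVL-14. Among 25 bone matrix genes 10 were higher in both and 8 lower in both. Spp1 was at 36124 CPM in the sham Ibsp cells against 3416 in the rest (10.6-fold) and at 25763 against 988 in JVL-14 (26.1-fold), and it was found in 10 of 10 and 6 of 10 Ibsp cells. Col13a1, a transmembrane collagen, had 37 UMIs in the sham Ibsp cells against 1 in the rest, and 41 against 11 in JVL-14. Ifitm5, a membrane protein that in bone marks mineralising osteoblasts, was found in 7 of 10 sham Ibsp cells against 3 of 63 and in 6 of 10 JVL-14 Ibsp cells against 3 of 39, with ratios of 18.1 and 20.9. Mmp13 was 6.47-fold and 2.55-fold higher, Timp1, an inhibitor of such proteases, 9.26-fold and 8.09-fold, and Serpine2, an inhibitor of serine proteases, 16.5-fold and 6.75-fold. A few cells set the sham ratios of Mmp13 and Serpine2. Each was found in 6 of 10 sham Ibsp cells, against 31 and 38 of 63, and 3 and 4 Ibsp cells held 3 or more UMIs. In JVL-14 Mmp13 was found in 6 of 10 against 21 of 39, and Serpine2 in 9 of 10 against 19 of 39. Timp1 was found in 9 of 10 sham Ibsp cells against 28 of 63, and in 7 of 10 against 20 of 39 in JVL-14. Cdh2 (N-cadherin), which joins osteoblasts to each other, was 3.09-fold and 6.22-fold higher. The type I collagen genes were also higher, Col1a1 6.17-fold and 2.24-fold and Col1a2 5.27-fold and 2.33-fold. The other genes named on this side were Cpe, Cdc42ep3, Col11a1, Nupr1 and Lifr.

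Of 34 measured genes of collagen processing and secretion, 19 were higher in the Ibsp cells of both libraries, 2 of them past 2-fold, and 6 lower in both. Bmp1, the protease that trims the procollagen C end, was at 297 CPM against 52.8 in sham and 208 against 72.3 in JVL-14. Fkbp11, an endoplasmic reticulum isomerase, was 2.50-fold and 2.13-fold higher, Creb3l1, a factor that drives collagen secretion in osteoblasts, 1.95-fold and 2.58-fold, and Serpinh1, the collagen chaperone, 2.40-fold and 1.81-fold. The osteocalcin genes behaved differently in the 2 libraries: Bglap was at 28580 CPM in the sham Ibsp cells against 2965 in the rest, and at 2850 against 3611 in JVL-14. In sham 2 of the 10 cells, one of them at the limit of 3 Ibsp UMIs, held 1898 of 2429 Bglap UMIs, and without them the sham Ibsp cells were at 7525 CPM, 2.54-fold above the rest in place of 9.64-fold. Alpl was lower in the Ibsp cells, at 0.242 times the rest in sham and 0.844 in JVL-14.

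Other genes were found mainly in the cells without Ibsp. Zic1, a zinc-finger factor of the meninges and skull roof, was found in 40 of the 63 sham cells and 21 of the 39 JVL-14 cells without Ibsp, and in 0 of 10 Ibsp cells of each library. Sfrp2, a secreted Wnt modulator of progenitors, had 322 UMIs in 33 of the 63 sham cells and 373 in 20 of the 39 from JVL-14, against 1 and 0 in the Ibsp cells. Chad (chondroadherin) was found in 10 sham and 3 JVL-14 cells without Ibsp and in 0 and 1 Ibsp cells. The imprinted RNA H19 was found in 19 and 9 cells against 1 and 0, and Dio2, which activates thyroid hormone, in 13 and 7 against 0 and 0. Slc20a2, a phosphate transporter, was at 357 and 327 CPM against 35.6 and 29.8, and Kcnk2 at 333 and 461 against 107 and 29.8. Nog (noggin), which binds and blocks BMPs, was at 311 and 551 CPM against 35.6 and 29.8. Cilp2, Abi3bp, Apod and Ecrg4 were the other genes named on this side. With 10 Ibsp cells per library a few cells set each ratio.

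**Figure D3:**
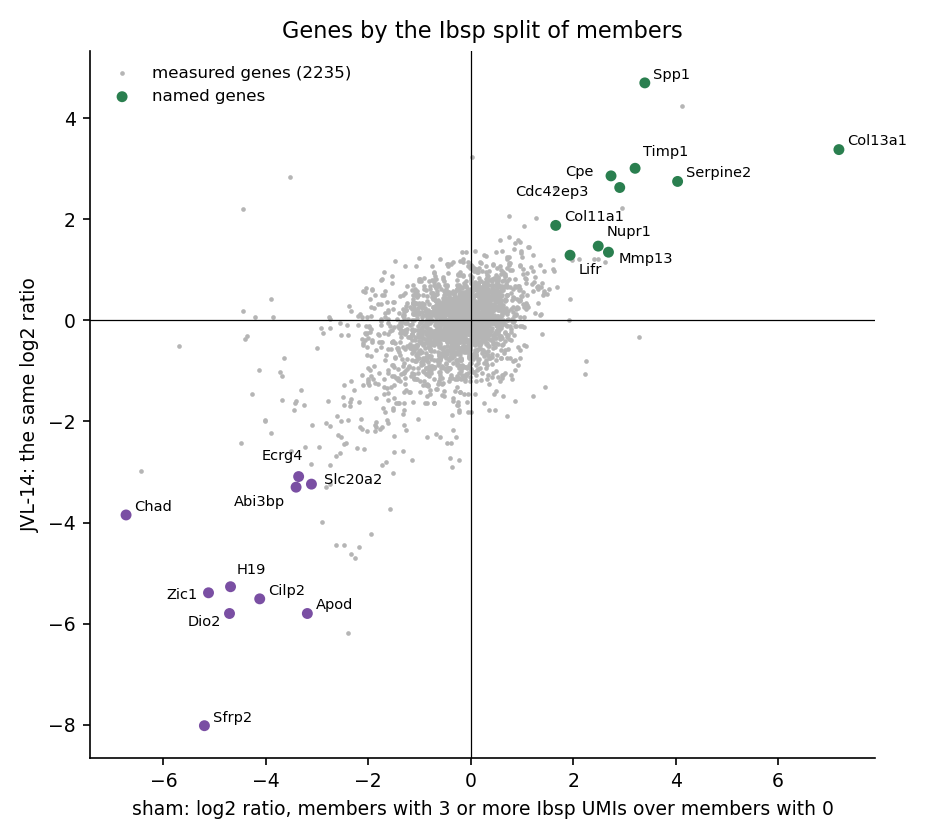
Each point is 1 of 2235 measured genes, with the log2 ratio of members with 3 or more Ibsp UMIs over members with 0 in sham on the horizontal axis and in JVL-14 on the vertical axis; green and purple points are the 20 named genes. Spp1, Col13a1 and Mmp13 lie in the upper right corner and Sfrp2, Zic1 and Chad in the lower left in both libraries.

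Lists fixed for other cells followed the same division. All 7 measured dural fibroblast markers were lower in the Ibsp cells of both libraries, 6 of them past 2-fold, with median log2 ratios of -3.32 in sham and -1.41 in JVL-14. Mfap4 was at 510 CPM against 0 in sham and 272 against 29.8 in JVL-14. Of 21 measured immediate early genes, which also respond to tissue dissociation, 15 were lower in both libraries, 5 of them past 2-fold, and 0 higher in both. Their medians were -0.73 in sham and -0.49 in JVL-14, beside -0.35 and -0.15 for mitochondrial genes and -0.32 and 0.17 for heat shock chaperones. Whether the genes of these lists had a part in the division was not tested.

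A second division ranked the members by osteocalcin. The 26 sham and 17 JVL-14 members with the highest Bglap and Bglap2 share had medians of 193 and 160 per 10000 UMIs, and as many members with the lowest had 8.59 and 11.0. Of 1324 genes measured, 16 were past 2-fold higher in both libraries (1.21%) and 27 past 2-fold lower (2.04%). Pth1r was at 985 CPM in the osteocalcin-rich sham members against 379 (2.60-fold) and at 1303 against 671 in JVL-14 (1.94-fold). Gja1, the gap junction protein connexin 43 that couples osteoblasts, was 2.43-fold and 2.21-fold higher, and Gsn (gelsolin), which severs actin, 2.42-fold and 3.87-fold. Bglap3 was also higher, 160 UMIs against 4 and 60 against 1, but shares sequence with the ranking genes. On the other side, Mgp (matrix Gla protein), an inhibitor of mineralisation, was at 734 CPM against 5103 in sham and 921 against 3719 in JVL-14. Chad had 0 UMIs against 310 and 1 against 62, and Rspo3, a Wnt agonist, 4 against 72 and 3 against 31. Ecrg4, Mfap4, Apod, Dio2 and Peg3 were the other genes named as lower, and Cpq, Ccdc12, S100a13 and H2az1 as higher. Of 6 measured dural fibroblast markers, 5 were lower in both libraries and 4 of them past 2-fold. The counts were 3 higher and 10 lower after each cell was thinned to 2000 UMIs, and 3 and 13 when members needed 10 osteoblast gene UMIs.

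The first question between the groups is whether the lineage took a different share of the dura after ligature. Members were 1.60% of retained cells in sham (1.27 to 1.98%) and 1.96% in JVL-14 (1.46 to 2.56%), a ratio of 1.23 with an interval of 0.844 to 1.76 that includes equality. With no Col1a1 limit, a choice made after seeing the data, the shares were 2.02% and 2.19% and the ratio 1.08 (0.768 to 1.51). Fewer or more osteoblasts and fewer or more of the other cells cannot be told apart in a share, and the peeling of the dura was done once per library.

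The second question is which transcripts differed inside the lineage. Of 3317 genes measured in members, with at least 50 UMIs in both libraries together and a mean of at least 50 CPM, 39 were past 2-fold higher in JVL-14 (1.18%) and 93 past 2-fold lower (2.80%). Over all 3317 the median log2 ratio was 0.04, with 1801 genes above 0, 1516 below and quartiles of -0.22 and 0.27. Weighting every cell equally gave 53 higher and 77 lower genes, so that 40.8% of the 2-fold genes were higher in place of 29.5%. Limits for transcripts of other cell types were 3 or more UMIs summed over the macrophage, neutrophil, B cell, T and natural killer cell, erythroid, skeletal muscle and olfactory neuron lists, or 10 or more haemoglobin UMIs. They were met by 57 of 79 members in sham and 34 of 51 in JVL-14, and by 660 of 820 and 272 of 363 other Col1a1-rich cells. The B cell list in members was 95.5% and 99.1% Ebf1, which those other cells also express, so the limits do not mark unrelated cells alone. Without the members that met the limits, 799 genes were measured and 7 were higher and 17 lower, 0 and 3 of them shared with the counts above. In cells thinned to 2000 UMIs 820 genes were measured and 9 were higher and 17 lower, 1 and 9 of them shared. Marker lists of other cells also differed between the groups: in members the macrophage list summed to 188 CPM in sham and 31.0 in JVL-14, beside the neutrophil and dural fibroblast values above, and their part in the differences was not tested. In the other Col1a1-rich cells, which are many more, 6 of 3243 genes were past 2-fold higher and 25 lower. In each gene with the highest or lowest ratios named in the next paragraphs, the cells of the 2 libraries overlapped, because both libraries held members without a UMI.

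Among the 10 genes named as higher in JVL-14 by limits on level, number of cells and concentration in a few cells, 2 were transcription factors of mesenchymal cells. Outside those limits, Dmp1 had a log2 ratio of 3.24, set by the 53 UMIs of 1 JVL-14 member, and the homeobox gene Meis2 one of 1.33. Snai2 (Slug), a zinc-finger repressor, was found in 20 of 79 sham and 32 of 51 JVL-14 members, with medians of 0 (highest 4.71) and 1.32 (highest 5.84) per 10000 UMIs, 41.4 and 177 CPM, a ratio of 4.27 (2.70 to 6.96). Sp7 followed with a ratio of 2.58 (1.69 to 4.01), and it is one of the rule's genes. Both were also higher among the members without Ibsp, Snai2 by 4.08 times (2.44 to 7.05) and Sp7 by 1.88 times (1.09 to 3.25). Rgs3, which dampens G protein signalling, was at 105 and 384 CPM, with medians of 0 and 2.0 per 10000 UMIs and a ratio of 3.66 (2.73 to 4.95). The AMPK-related kinase gene Nuak1 had a ratio of 3.24 (1.98 to 5.43), and the sorting nexin gene Snx7 one of 2.57 (1.69 to 3.94). Wwp2, a ubiquitin ligase, had a ratio of 2.55 (1.59 to 4.15). Mlip, Prpf4b, Dleu2 and Phip completed the 10 with ratios of 2.03 to 2.19.

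Among the genes that met the naming limits on level, number of cells and concentration in a few cells, the lowest ratio was that of Cebpb, a transcription factor induced by stress hormones and inflammation. Outside those limits, Retnlg, S100a8, S100a9, Lcn2, Ngp and Lyz2, which neutrophils and other myeloid cells express, had lower log2 ratios of -7.00, -6.92, -6.23, -5.22, -5.15 and -3.15, as did Emb with -3.25. Cebpb was found in 49 of 79 sham and 8 of 51 JVL-14 members, with medians of 1.21 (highest 11.3) and 0 (highest 2.93) per 10000 UMIs, 220 and 23.9 CPM, which is 9.20-fold lower. It was at 0.0831 times the sham level among members without Ibsp and at 0.15 times among the Ibsp cells. In the other Col1a1-rich cells it was lower too, at 288 and 81.9 CPM. Its relative Cebpd was at 418 and 141 CPM in members and at 1284 and 982 in those cells. Cat (catalase) was at 132 and 38.2 CPM, 3.46-fold lower, and at a log2 ratio of -0.13 in the other cells. Dok1, an adaptor of tyrosine kinases, was 3.79-fold lower, and Afdn (afadin), a scaffold of cell junctions, 3.14-fold. Por, the reductase that feeds electrons to cytochromes P450, was 2.90-fold lower, Sav1, a scaffold of the Hippo kinases, 2.86-fold, Daam2, a formin of Wnt signalling, 2.74-fold, and Mtch1, a mitochondrial membrane protein, 2.72-fold. Of these, Sav1, Mtch1 and Por were also lower in the other Col1a1-rich cells, with log2 ratios of -1.15, -0.86 and -0.82. When the members that met the limits for other cell types' transcripts were left out, 22 sham and 17 JVL-14 cells remained. Rgs3, Snx7, Mlip, Dleu2, Afdn, Por and Sav1 then came below 2-fold, with log2 ratios of 0.51, 0.31, 0.17, 0.30, -0.71, -0.50 and -0.54. Cebpd then stood at 0.17, the other side of 0, while Snai2 stood at 1.75 on counts below the minimum for a measured gene.

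**Figure D4:**
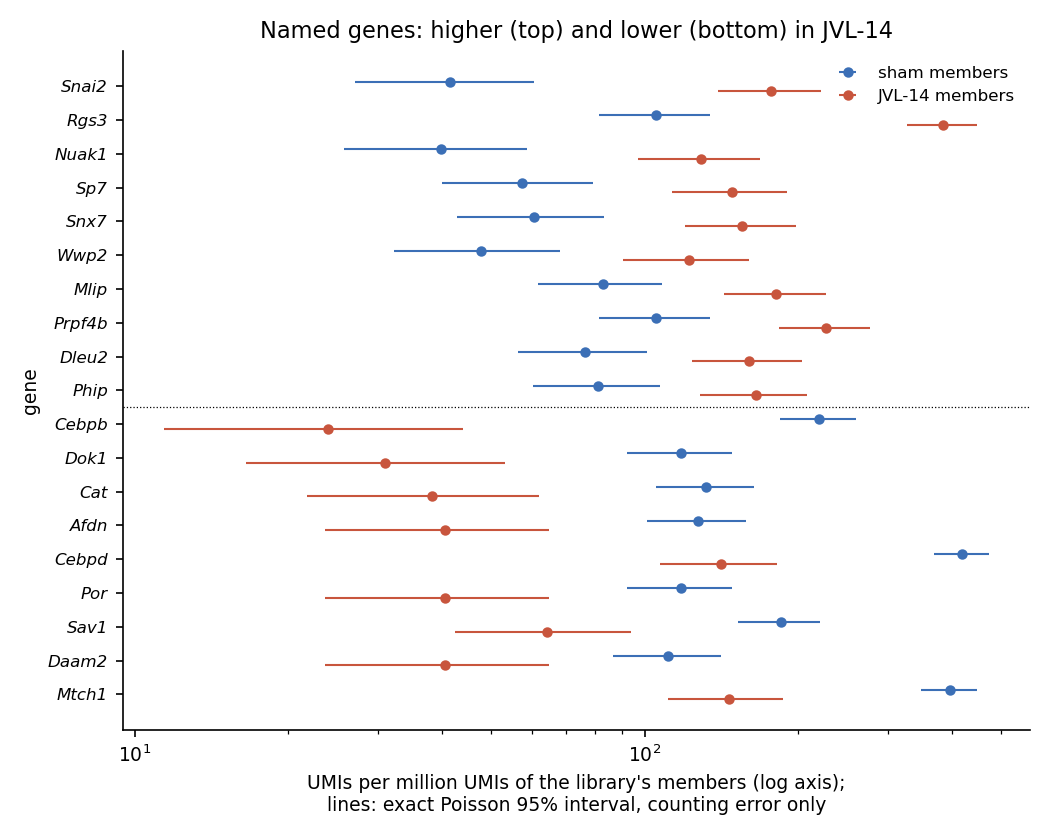
For the genes named here, points give the CPM summed over the 79 sham members (blue) and the 51 JVL-14 members (red) on a log axis, and lines the exact Poisson 95% interval of counting error. Snai2 and Rgs3 are farthest apart among the higher genes at the top and Cebpb among the lower genes at the bottom.

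By role, the factors that specify osteoblasts were mixed. The median log2 ratio of the 17 measured was 0.14, 11 lay above 0 and 6 below, and 2 were past 2-fold, Snai2 and Sp7. Runx2 was at 261 and 384 CPM, a ratio of 1.47 (1.18 to 1.84). Its ratio was 2.30 (1.28 to 4.38) in the Ibsp cells. In the members without Ibsp it was 1.20 (0.917 to 1.56), an interval that includes equality. Dlx5, a homeobox factor of skull bone, was at 347 and 422 CPM, and Zeb2 at 288 and 537, a ratio of 1.87 (1.53 to 2.28). Twist1, which restrains RUNX2, was at 315 and 189 CPM, a ratio of 0.599 (0.455 to 0.781), and Foxc1, a factor of skull and meninges, at 105 and 54.9. Pth1r was at 619 and 905 CPM, a ratio of 1.46 (1.27 to 1.69), and Vdr, the vitamin D receptor, at 71.6 and 112. The list of hormone receptors as a whole had a median of -0.04, with 4 of 9 higher and 5 lower.

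Bone matrix genes showed no shared direction. The 28 measured split into 14 above and 14 below 0, and their median log2 ratio was -0.02. Col1a1 was at 13464 and 11333 CPM and Col1a2 at 10571 and 10885. The lower side held Bglap, at 0.506 times the sham level, and Mgp, at 3818 and 1828 CPM. Both osteocalcin genes are rule genes. Within the Ibsp cells the ratio of Bglap was 0.0997 (0.0880 to 0.113), or 0.379 (0.327 to 0.438) without the 2 sham cells that held most of it, and in members without Ibsp it was 1.22 (1.12 to 1.32). Tnc was higher, at 606 and 1186 CPM, a ratio of 1.96 (1.71 to 2.24), with medians of 4.84 (0 to 36.0) and 8.62 (0 to 102) per 10000 UMIs, and Thbs1 (thrombospondin 1) lower, at 457 and 174. Of 12 measured mineralisation genes 7 were higher and 5 lower (median 0.08), among them Alpl with a ratio of 1.10 (0.980 to 1.23). Of these, Ank, the pyrophosphate exporter, was lower past 2-fold at 143 and 43.0 CPM. Of 41 genes of collagen processing and secretion 23 were higher and 18 lower (median 0.04), and 1, the lysyl oxidase relative Loxl3, was past 2-fold, at 108 and 52.5 CPM. Of 14 early osteoblast and periosteal progenitor genes 8 were higher and 6 lower (median 0.15), with Sfrp4, a secreted Wnt inhibitor, past 2-fold lower at 192 and 69.2 CPM and Postn at 861 and 1151. Of 16 matrix proteases and inhibitors 9 were higher and 7 lower (median 0.07), with Mmp13 level at a ratio of 1.07 (0.930 to 1.24).

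Most measured Wnt genes and most IGF and FGF genes were lower in JVL-14, while BMP and TGF-beta genes were mixed. Of 14 measured Wnt genes 10 were lower and 4 higher, with a median of -0.33, against 0.05 in the other Col1a1-rich cells. The receptors Fzd1 and Fzd2 were at 78.0 and 35.8 CPM and at 71.6 and 33.4, and the co-receptor Lrp6 at 134 and 88.3. Lrp4, a receptor for sclerostin, was higher at 337 and 463 CPM, and Wif1, a secreted Wnt antagonist, lower at 85.9 and 47.7. Of 10 IGF and FGF genes 8 were lower (median -0.55, against -0.17 in the other cells). Igf1, a growth factor of bone, was at 251 and 88.3 CPM, a ratio of 0.351 (0.239 to 0.505), and its receptor Igf1r at 113 and 62.1. Igfbp5, the IGF-binding protein of bone, was at 4499 and 2750 CPM in members and at 10500 and 7150 in the other cells. The receptors Fgfr2 and Fgfr3 were on the higher side, with ratios of 1.37 (1.04 to 1.80) and 1.60 (1.04 to 2.47). Among 21 BMP and TGF-beta genes 12 were higher and 9 lower (median 0.07). The BMP-responsive genes Id1 and Id3 had ratios of 1.85 (1.41 to 2.42) and 1.80 (1.64 to 1.97) in members and were higher in the other cells too, at log2 ratios of 0.65 and 0.61. The antagonist Nog was at 269 and 399 CPM, a ratio of 1.48 (1.19 to 1.85), and Bmp3, a member of the family that opposes bone formation, at 98.6 and 26.3 CPM with 9 and 6 members holding a UMI.

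Genes through which osteoblasts speak to blood cells and osteoclasts differed little as groups. Of 7 measured osteoclast coupling genes 4 were higher and 3 lower (median 0.07). Cd200, an immune-restraining surface protein, was at 183 and 310 CPM, a ratio of 1.70 (1.31 to 2.20), Csf1, the growth factor of macrophages and osteoclast precursors, at 81.1 and 71.6, and Cxcl12, the chemokine that holds blood progenitors, at 227 and 239. Of 10 haematopoietic niche genes 8 were lower (median -0.23, against 0.16 in the other cells). The median was 0.02 without members carrying other cell types' transcripts. Emb (embigin) was at 124 and 11.9 CPM, but 5 cells held 87.2% of its sham UMIs. Of 10 genes that respond to mechanical load 8 were higher (median 0.31, against 0.15 in the other cells), and the median was -0.10 after thinning to 2000 UMIs.

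Glucocorticoid response genes had the lowest median of the 21 lists summarised. Of 15 measured, 13 were lower in JVL-14, 6 of them past 2-fold, with a median of -0.70. The other 2, Angptl4 and Dusp1, were level, with log2 ratios of at most 0.01. Of all 3317 genes measured in members, 1516 were lower and 93 past 2-fold lower (2.80%). In the other Col1a1-rich cells 14 of 15 measured genes of the list were lower, with a median of -0.61. Klf9, a direct target of the receptor, was at 822 and 329 CPM, a ratio of 0.400 (0.329 to 0.484), Tsc22d3 (GILZ), another, at 1844 and 1155, and Per1, a clock gene that steroids induce, at 73.2 and 28.6. The metallothionein genes Mt1 and Mt2 were at 614 and 320 CPM and at 161 and 59.7. The receptor gene Nr3c1 was at 200 and 184 CPM. The lowest ratio of the list, that of Lcn2, came from 1 sham member with 139 UMIs. The list's median stayed between -0.83 and -0.66 in all alternatives run.

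Interferon response genes were lower in 10 of 10 measured (median -0.44) and in 16 of 17 in the other cells (median -0.34). Isg15 was at 138 and 66.8 CPM, but in 19 and 7 members only, and 5 cells held 80.5% and 92.9% of its UMIs. Ifit3 was at 218 and 33.4 CPM, with 89.8% of the sham UMIs in 5 cells, and B2m, the light chain of class I molecules, at 654 and 575. Without the 5 deepest members of each library the median was -0.02. For the remaining lists the medians lay near 0: 0.20 for osteocyte transition genes, 0.10 for hypoxia and angiogenic genes, 0.04 for heat shock chaperones, 0.02 for stress and unfolded protein response genes, -0.03 for mitochondrial genes and -0.04 for immediate early genes. In parathyroid hormone targets, inflammatory cytokines and cell cycle genes 3 genes each were measured, too few for a median.

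**Figure D5:**
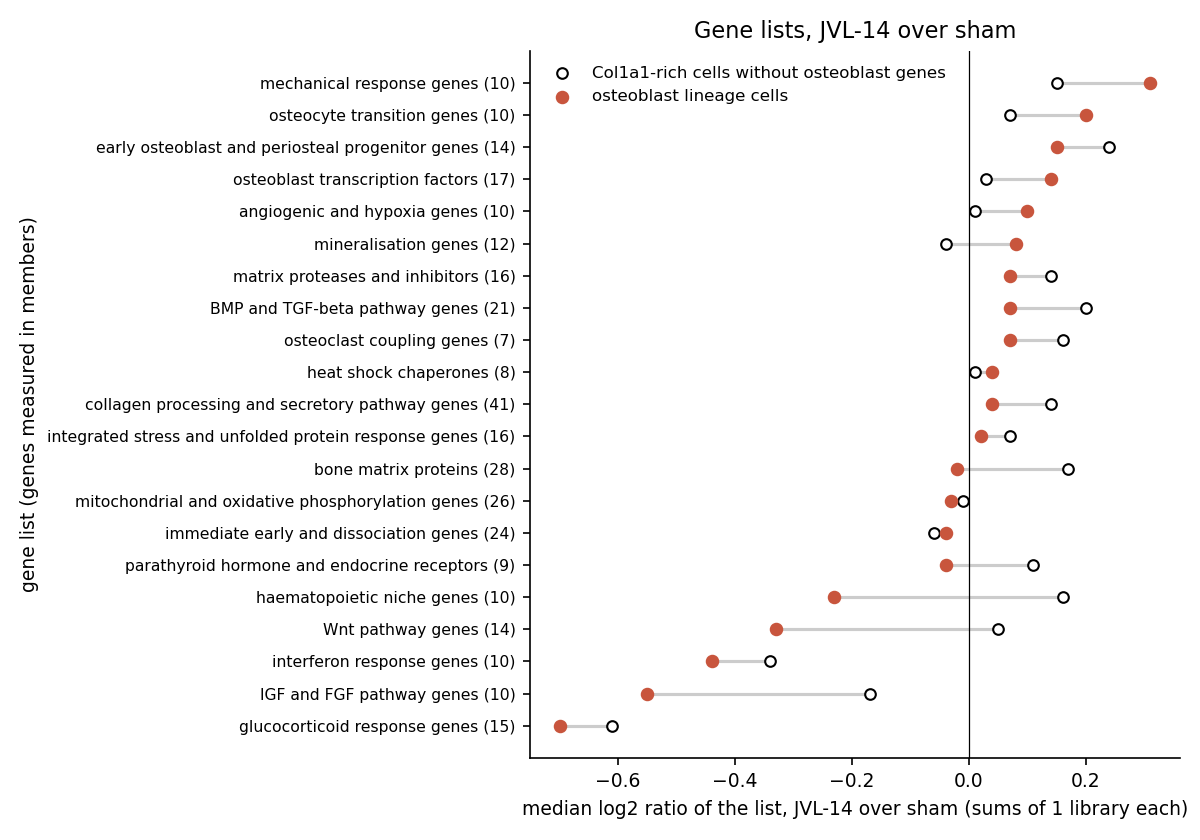
For each of the 21 lists with at least 5 measured genes, the red point is the median log2 ratio of JVL-14 over sham in the osteoblast lineage cells and the open point the same in Col1a1-rich cells without osteoblast genes, with the number of genes measured in members in brackets. The glucocorticoid and interferon lists lie below 0 in both classes of cells, and the Wnt and niche lists below 0 in the members and above 0 in the other cells; these differences were not tested.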

How the data were processed

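Dura cells of 1 sham and 1 JVL-14 library were counted with Cell Ranger 8.0.0, per the file headers, against mm39, per the submitters' processing notes. Which annotation they used was not given in the sources used here. As deposited, the matrices hold raw UMI counts per gene and barcode, 33996641 in sham and 18796260 in JVL-14, for barcodes the caller kept. The members and gene lists were chosen with earlier results of these data known.

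Barcodes with at least 200 genes and at most 10% mitochondrial UMIs were retained, and members were selected by UMI thresholds. UMIs were summed over members per library and divided by their total (CPM). That total left out Bglap and Bglap2 in the osteocalcin ranking and Ibsp in the Ibsp division. Within the Ibsp division, the Bglap values and the ratios of JVL-14 over sham used all UMIs. Log2 ratios had 0.5 added to each count, and a gene past 2-fold is a description. Shares carry exact Clopper-Pearson intervals, sums exact Poisson intervals, and ratios of 2 counts the exact conditional binomial interval, all at 95%; the limit for a count of 0 is 3 counts. Intervals treat UMIs as independent molecules and leave out variation between cells and mice. The ratio script was tested on simulated counts.

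The 10 highest and 10 lowest ratios of JVL-14 over sham were named if the library where the gene was higher had 50 UMIs and 100 CPM, a UMI in at least 20% of those members, at most 50% of the UMIs in 5 cells, and at least 0.5 times the level of all retained cells; counts under 3 were set to 3, and Xist, unnamed models and the immunoglobulin, haemoglobin, ribosomal and mitochondrial genes were left out. Of the 10 lowest, 1 is not reported here. The 15 named against other Col1a1-rich cells had the highest smaller ratio of both libraries (their mirror image was added after seeing the data), and the 8 on each side of the osteocalcin ranking the largest smaller log2 ratio and 30 UMIs where higher. The Ibsp division and its 10 genes per side used the same measure and were added after seeing the data. List genes were named by role. Scrublet (scanpy 1.11.5) marked 0.121% and 0.230% of cells, which is too few to be useful, so the top 5% of its scores stood for doublets; 9 sham and 2 JVL-14 members were among them, and they were kept. Alternatives varied the filters, thresholds, depth, denominator, weighting and count minimum. Promoters came from the RefSeq table and transcripts were aligned with Biopython 1.88. Python 3.11.15, numpy 2.4.6, scipy 1.17.1 and pandas 2.3.3 were used.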

Additional observations from a re-analysis of the deposited data

How the results depend on the processing

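With 1 library per group, no alternative shows whether a difference would recur in other mice, and 628578 and 418942 UMIs limit the members to genes of 50 CPM or more. No paired analysis was possible because the groups share no replicate and nothing was tested. Besides 13 alternatives, others were chosen after seeing the data. These left out the haemoglobin-rich and neutrophil-rich members, dropped the Col1a1 limit or lay within the Ibsp division. Over all of them 560 values stayed within counting error or 1.5 times, 40 moved and 1 was counted as turned. A list median near 0 could change sign and still count among the 560. The bone matrix median went from -0.02 to 0.10 without likely doublets. The median kept its sign in 9 of 14 alternatives for collagen processing genes and in 8 of 14 for matrix proteases and inhibitors. The share of cells had a ratio of 1.08 to 1.47.

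Genes past 2-fold numbered 7 higher and 17 lower without members carrying other cell types' transcripts, 9 and 17 in cells thinned to 2000 UMIs, 24 and 61 without the 5 deepest members of each library, and 189 and 274 with a minimum of 20 UMIs and 20 CPM. The first 2 of these measured 799 and 820 genes in place of 3317. The B cell list, which is among those that remove cells in the first, was 95.5% and 99.1% Ebf1, which Col1a1-rich cells also express at 442 and 523 CPM. The higher share of 2-fold genes was 29.5%, and 40.8% both with a mean over cells and with the lower minimum. Of the 39 and 93 genes, 23 and 54 were past 2-fold again in the mean over cells.

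Without members carrying other cell types' transcripts the medians were -0.16 for collagen processing, -0.02 for interferon and 0.42 for mitochondrial genes, and Cebpd stood at 0.17. In the mean over cells interferon and mitochondrial genes stood at -0.12 and 0.09, and without the 5 deepest members interferon stood at -0.02. The osteocalcin ranking gave 3 higher and 13 lower genes with 10 osteoblast UMIs, 3 and 17 without members carrying other transcripts, and 3 and 10 after thinning. The causes of these shifts were not tested. Snai2, Nuak1, Wwp2, Prpf4b, Cebpb, Dok1, Cat, Daam2 and Mtch1 were past 2-fold in the same direction in all 13 alternatives run on single genes. Sp7 was in 12 and Phip in 5. These ratios did not require the count minimum. Without members carrying other transcripts, 0 of the 39 higher and 3 of the 93 lower genes were both measured and past 2-fold. Snai2, Nuak1, Wwp2 and Prpf4b thus lay below the minimum there. After thinning 1 and 9 were.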
